A study of Mus musculus with 24 samples.

Results

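Regions of open chromatin called mainly in adult soleus were chosen from 24 peak lists of mouse hindlimb muscle. Peaks of all lists were merged into regions, and the 459616 regions called in at least 2 lists were kept. A region counted as an adult soleus region when a peak overlapped it in 3 of 3 adult soleus lists and in at most 1 of the 9 lists of the other adult muscles, and 1070 regions, 0.233% of those kept, met this rule. The adult calls therefore chose the regions, and they are given as a description with no test; the 12 lists of embryonic muscle took no part in the choice. The assay was ATAC-seq, in which the transposase Tn5 cuts accessible DNA and leaves sequencing adapters, and a peak is a stretch with more cuts than its surroundings. A call is a yes or no: the lists give positions only, so neither the height of a peak nor the depth of a library is known, and an absent call does not show closed chromatin.

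All mice were males of the inbred strain FVB/NJ, with no transgene or treatment named in the labels. The groups were soleus of 3 adults, and, set against it, vastus intermedius, gastrocnemius and vastus lateralis of the same 3 adults. The same 4 muscles were taken from 3 litters at E18.5, shortly before birth, each pooled from both hindlimbs of up to 5 male embryos, so each animal or litter gave 4 lists. The study names soleus and vastus intermedius slow-biased and gastrocnemius and vastus lateralis fast-biased. For the adults the design text gives postnatal day 56, whereas the protocols give an age of 3 to 4 months when the mice were obtained. Nuclei came from undigested tissue, so blood vessels, connective tissue and other cells of the muscle are included, and fewer cells of a type cannot be told apart from less open chromatin per cell.

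The soleus is a postural calf muscle. In mice it is rich in slow (type I) fibres and in fast oxidative (type IIA) fibres, whereas gastrocnemius and vastus lateralis consist mostly of glycolytic fast fibres. Fibre type is set by which isoforms of the contractile proteins and calcium pumps a fibre makes, and accessible stretches of DNA away from promoters often act as enhancers that differ more between tissues than promoters do.

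The promoters of genes that came to carry adult soleus regions are shown first, because the regions of Tnnc1, Myh7 and Myoz2 lie inside these genes and outside the promoters. Each line gives the 250 bases before a gene's start, 5′ to 3′ on the strand of the gene, from RefSeq on GRCm38.p6, the assembly of mm10. Capitals mark a match, on either strand, to the letters GGAATG (bound by TEAD factors), to CAGCTG (an E-box) or to the MEF2 consensus. The Myoz2 line holds both of the last named, which do not overlap. The promoter of Alkbh4 is a start inside the gene at which an adult soleus region covered part of the window; its line holds none of these matches. RefSeq gives Myh7 another start, whose window (chr14:54994550-54994799) overlaps the printed one and holds none of them either.
Tnnc1, chr14:31208062-31208311, plus strand: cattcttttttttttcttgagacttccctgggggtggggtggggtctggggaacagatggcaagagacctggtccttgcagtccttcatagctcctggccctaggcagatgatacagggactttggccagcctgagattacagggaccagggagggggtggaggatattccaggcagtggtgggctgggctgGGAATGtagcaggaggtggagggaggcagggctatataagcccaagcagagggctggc
Myh7, chr14:54994627-54994876, minus strand: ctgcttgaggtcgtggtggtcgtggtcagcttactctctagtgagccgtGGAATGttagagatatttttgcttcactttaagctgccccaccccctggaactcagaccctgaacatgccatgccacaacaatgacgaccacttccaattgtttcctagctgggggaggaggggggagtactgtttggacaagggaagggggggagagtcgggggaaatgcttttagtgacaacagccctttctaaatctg
Myoz2, chr3:123034988-123035237, minus strand: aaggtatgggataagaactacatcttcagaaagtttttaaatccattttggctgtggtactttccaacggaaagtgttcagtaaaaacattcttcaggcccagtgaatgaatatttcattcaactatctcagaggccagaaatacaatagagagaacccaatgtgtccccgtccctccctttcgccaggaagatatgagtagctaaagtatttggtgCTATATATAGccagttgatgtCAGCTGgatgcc
Alkbh4, chr5:136138531-136138780, plus strand: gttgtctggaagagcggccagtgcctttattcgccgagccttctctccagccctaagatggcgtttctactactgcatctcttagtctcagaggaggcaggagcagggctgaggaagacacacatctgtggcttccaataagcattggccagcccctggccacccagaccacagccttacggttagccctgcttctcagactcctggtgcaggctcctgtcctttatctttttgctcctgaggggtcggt
The mature microRNAs are shown because adult soleus regions lay near their hairpins. Capitals mark the seed, bases 2 to 8, which pairs with target RNAs.
mmu-miR-206-3p: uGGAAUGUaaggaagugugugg
mmu-miR-133b-3p: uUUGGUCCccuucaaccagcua
mmu-miR-208b-3p: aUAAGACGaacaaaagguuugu
The 3 seeds differ from each other. Of all promoters in the table, 12.6% held GGAATG, 13% held CAGCTG and 2.92% the MEF2 consensus in the same 250 bases.

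The depth of the lists, as far as it can be seen, was their length. Adult soleus lists held 149426, 211875 and 168982 peaks, and the 9 other adult lists between 115333 and 219114. At E18.5 the soleus lists held 129754, 228137 and 120387 peaks, so that litter 2 of soleus had the longest list of the series. All 10 skeletal muscle fibre markers, among them Ckm, Acta1 and Ryr1, had a called region in their loci in every adult list. A gene's locus is its body with 10 kb on each side.

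The adult soleus regions were a small share of what adult soleus called. Of the 39706 regions called in all 3 soleus lists, 2.69% met the rule, and 23302 were called in all 12 adult lists. Among the 1070, 372 were called in 0 of the 9 other adult lists and 698 in 1. Just outside the threshold, 959 regions were called in 3 soleus lists and 2 others. The same rule gave 318 regions for vastus intermedius, 990 for gastrocnemius and 1593 for vastus lateralis, whose lists averaged 130608, 171485 and 187519 peaks, against 176761 in soleus. That order depended on list length: with every list thinned at random to the length of the shortest, soleus had the fewest, 512, against 773, 741 and 786 in the other muscles in the same order. The single other call came from vastus intermedius for 184 regions (26.4%), from gastrocnemius for 268 (38.4%) and from vastus lateralis for 246 (35.2%). These muscles held 26.7%, 35% and 38.3% of the peaks in the 9 lists.

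Some adult soleus regions lay at genes of a slow fibre list, which also holds Myh2, the myosin of fast oxidative (type IIA) fibres. Of the 18 genes of this list, 5 had such a region in their loci: Myh7, Tnnc1, Atp2a2, Myoz2 and Myh2. The region counted for Myh2 lies inside Myh1, a gene of the fast fibre list. Over all 21887 protein-coding genes, 681 (3.11%) had one. Of the 308 kept regions in the slow fibre loci, 5 (1.62%) were adult soleus regions, against 717 of 346643 (0.207%) in all protein-coding loci. No test is given for this list, which was chosen with earlier results of these data known.

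The region in Myh7, which encodes the slow myosin heavy chain of type I fibres and of the heart, was called in no other adult list. It lies inside the gene on chromosome 14, 54981870 to 54982552 (mm10), where the annotation used here does not tell exons from introns. At E18.5 it was called in soleus of litter 2 only. Tnnc1 encodes troponin C of slow and cardiac muscle, the calcium sensor of the thin filament. Its region, on chromosome 14, 31209155 to 31209639, begins 843 bp inside the gene and is the only one of the 5 within 1 kb of a gene end. It was called in 3 of 24 lists, all of adult soleus.

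Atp2a2 encodes SERCA2, the calcium pump of slow fibres and heart. Its region (chromosome 5, 122473358 to 122474344, inside the gene) was also called in gastrocnemius of adult 1 and, at E18.5, in soleus of litter 2. Myoz2 encodes calsarcin-1, a Z-disc protein of slow and cardiac muscle that binds calcineurin. Its region (chromosome 3, 123017301 to 123018429, inside the gene) was also called in vastus intermedius of adult 2 and in 0 of 12 E18.5 lists. Myh2 encodes the myosin of fast oxidative (type IIA) fibres and its neighbour Myh1 that of type IIX fibres. Their region lies 4110 bp past Myh2 and inside Myh1 (chromosome 11, 67201627 to 67202149). It was also called in gastrocnemius of adult 1 and in 0 of 12 E18.5 lists. Because the loci overlap, it counts for both genes, and it was the only adult soleus region of the fast fibre list, of whose 18 genes 1 had one.

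Mybpc1, the slow isoform of myosin-binding protein C, stands on the cytoskeleton and Z-disc list and not on the slow fibre list. Its region inside the gene (chromosome 10, 88533595 to 88534282) was called in 3 of 3 adult soleus lists, 0 of 9 other adult lists and 0 of 12 E18.5 lists. Mybpc1 was the only gene with an adult soleus region among the 21 of that list, against 3.11% of all protein-coding genes.

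**Figure D1:**
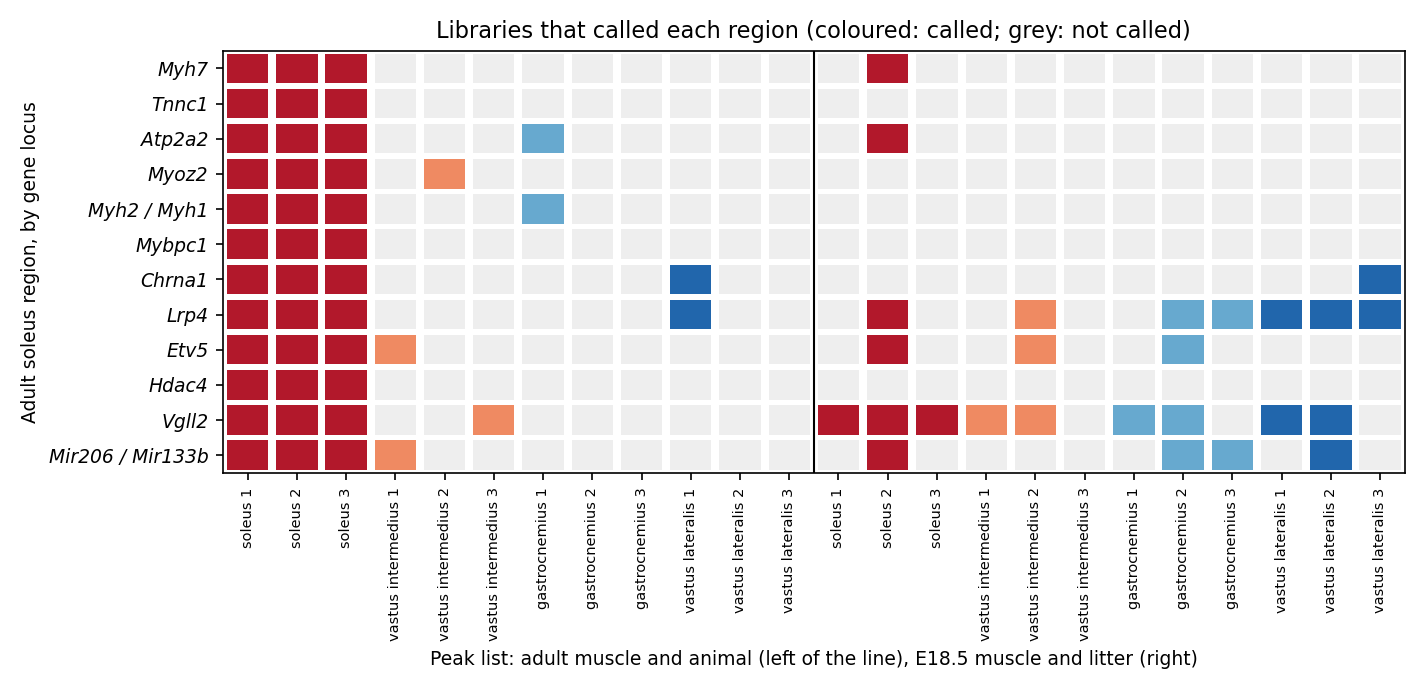
Calls of 12 adult soleus regions (rows, by gene locus) in the 24 peak lists (columns; adult left of the line, E18.5 right); a coloured square is a call, grey is none, and colours stand for the 4 muscles. The rule fixed the adult calls; at E18.5 the regions of Tnnc1, Myoz2, Myh2, Mybpc1 and Hdac4 were called in 0 of 12 lists, whereas that of Vgll2 was called in 9.

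At E18.5 the 5 slow fibre regions were seldom called, in 2 of 60 list-by-region pairs (3.33%), against 3186 of 12840 (24.8%) for all adult soleus regions. Both calls came from soleus of litter 2, the longest list. The regions of Tnnc1, Myh2 and Myh7 were 485, 523 and 683 bp wide, and those of Atp2a2 and Myoz2 987 and 1129 bp. The median of all adult soleus regions was 1017.5 bp. An overlap of 1 bp makes a call, and the part of width was not tested. In each of the 5 regions the 3 adult soleus peaks shared bases, from 39 in Myh7 to 268 in Tnnc1.

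Calls at the promoters of Tnnc1, Myh7, Myoz2 and Mybpc1 are given as a description. The rule held the adult soleus regions inside these genes to at most 1 other adult list, so wider calling of a promoter is no separate result. The Tnnc1 promoter, taken as 250 bases before to 50 after the start, was called in all 24 lists. The Myh7 promoter, at both starts, was called in 3 of 3 adult soleus lists, against 3 of vastus intermedius, 2 of gastrocnemius and 1 of vastus lateralis, and in 2 of 12 E18.5 lists. For Myoz2 the counts were 3 in adult soleus, against 3, 3 and 1 in the other muscles in the same order, and 3 of 12 at E18.5. The Mybpc1 promoter was called in 2 adult soleus lists, against 3, 2 and 1, and in 6 of 12 at E18.5. In the myosin cluster, the Myh2 promoter was called in 0 of 3 adult soleus lists, against 3 of 3 of vastus intermedius, 0 of gastrocnemius and 0 of vastus lateralis. That of Myh4, the myosin of the fastest fibres, was called in 0 of 3 adult soleus lists, against 3 of 3 in each other muscle. Myh1 stood apart from Myh4: its promoter was called in 3 of 3 adult soleus lists, against 3 of vastus intermedius, 1 of gastrocnemius and 1 of vastus lateralis.

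Counting every called region of a locus, adult soleus and vastus intermedius stood above vastus lateralis at Atp2a2. At that locus the adult soleus lists called 14, 12 and 13 regions, against 12, 8 and 12 for vastus intermedius, 10, 7 and 6 for gastrocnemius, and 5, 6 and 7 for vastus lateralis. The soleus values did not overlap those of gastrocnemius or vastus lateralis. At Myoz2 the adult soleus lists called 6, 4 and 7, against 3, 6 and 4 for vastus intermedius. There, gastrocnemius had 4, 1 and 1 and vastus lateralis 1, 0 and 1, so soleus did not overlap vastus lateralis. At Myh7 the adult soleus lists called 12, 9 and 13, against 7, 12 and 8 for vastus intermedius, 10, 7 and 13 for gastrocnemius, and 8, 2 and 2 for vastus lateralis. Soleus thus overlapped vastus intermedius and gastrocnemius there. Its lowest count, 9, passed the 8 of vastus lateralis only through the adult soleus region. The rule put that region in every adult soleus list. At E18.5 the Myoz2 locus had 0 to 2 called regions in every list. Tnnc1 showed no such order: its locus averaged 5 ± 1.73 called regions in adult soleus, against 5 ± 1, 5 ± 0 and 4.67 ± 1.15 in vastus intermedius, gastrocnemius and vastus lateralis (SD, n = 3). These counts include the adult soleus regions themselves, which are 1 per locus. The loci are shown because they hold such a region. The share of all loci at which muscles do not overlap is not given here, so the separations at Atp2a2 and Myoz2 are descriptions only. Slow fibre loci without an adult soleus region went both ways. At Csrp3 adult soleus averaged highest, 8 ± 1, against 7 ± 1, 6 ± 1 and 2 ± 2 in the same order. At Smtnl1 it averaged lowest, 5.33 ± 0.577, against 6.33 ± 0.577, 6.33 ± 0.577 and 5.67 ± 1.53.

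**Figure D2:**
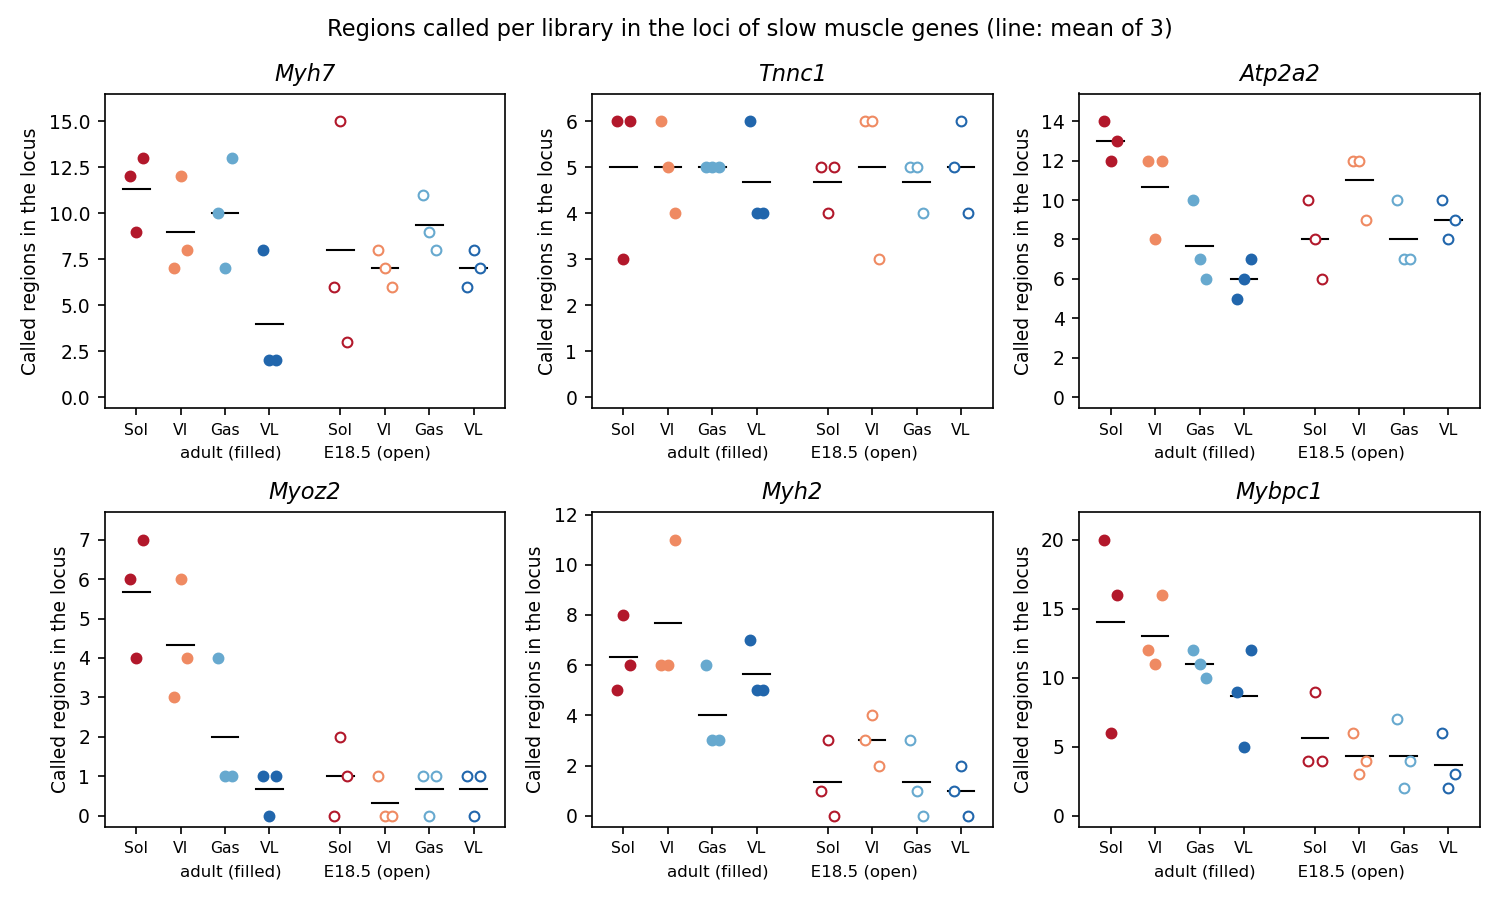
Called regions per library in the loci of 6 genes with an adult soleus region, 5 of the slow fibre list and Mybpc1. The y axis gives the number of regions and the x axis soleus, vastus intermedius, gastrocnemius and vastus lateralis, adult filled and E18.5 open. Points are libraries and lines the mean of 3. At Atp2a2 the adult soleus libraries lie at 12 to 14 and those of vastus lateralis at 5 to 7; at Tnnc1 the groups overlap.

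By the same rule the other muscles had fewer slow fibre genes with a region. Vastus intermedius had 1 (Myh2), gastrocnemius 1 (Myl3, a light chain of slow and ventricular myosin) and vastus lateralis 0. Genes of the fast fibre list numbered 1 in soleus, against 2 in vastus intermedius (Myh1 and Pfkm), 0 in gastrocnemius and 4 in vastus lateralis (Myh4, Tpm1, Mybpc2 and Ampd1). Of all protein-coding genes, 3.11% had a region in soleus, against 1.18%, 3.56% and 5.17% in the other muscles in that order. The order for slow genes depended on the lists: with every list thinned at random to the length of the shortest, soleus had 2 slow fibre genes (Myh2 and Myoz2), against 3 in vastus intermedius and 0 in the fast-biased muscles. Of all protein-coding genes, 1.61% had a region in soleus with thinned lists, against 2.76%, 2.6% and 2.66%. Without adult 1, soleus had 7 slow fibre genes, against 8, 4 and 6 in the other muscles. It had 9, against 3, 6 and 1, without adult 2, and 12, against 3, 6 and 2, without adult 3. The shares of all protein-coding genes rose as well. They were 23.3% in soleus, against 12.7%, 20.2% and 23.6%, without adult 1. Without adult 2 they were 16.9%, against 9.72%, 20.5% and 24.3%, and without adult 3 they were 19%, against 10.6%, 22% and 25.7%. Which genes they were also depended on the call: where a call had to cover 50% of the region, soleus again had 5, but Atp2a2, Myoz2 and Myh2 were lost and Myh7b, Myl2 and Tnnt1 came in.

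Genes of the neuromuscular junction came next by share. Of 13 listed genes, 3 had an adult soleus region, against 3.11% of all protein-coding genes. Of the kept regions of their loci 1.27% were such regions, against 0.207% in all protein-coding loci. By the same rule vastus intermedius had 0 of these genes, gastrocnemius 1 and vastus lateralis 1. Chrna1 encodes the alpha subunit of the muscle acetylcholine receptor, and its region (chromosome 2, 73586572 to 73587291) lies 6234 bp beyond the gene, within the antisense transcript gene Chrna1os. It was called in vastus lateralis of adult 1 and of litter 3 besides adult soleus. Lrp4, the receptor for the nerve signal agrin, had a region inside the gene that was called in 7 of 12 E18.5 lists. Etv5, a transcription factor of synaptic nuclei in muscle, had one 6590 bp beyond the gene that was called in 3. The 3 soleus peaks shared bases at Chrna1 (135 bp) and not at Lrp4 or Etv5.

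At regulators of fibre type the share of adult soleus regions was near that of all loci. Of 28 listed genes, 2 had one, and the share of kept regions was 0.179%, against 0.207% in all protein-coding loci. By the same rule 4 of these genes had a region of vastus intermedius, 1 of gastrocnemius and 4 of vastus lateralis. Hdac4, a histone deacetylase that represses MEF2 factors, had one inside the gene (chromosome 1, 91991446 to 91992700) that was called in no list outside adult soleus. Vgll2, a muscle cofactor of TEAD factors, had one 572 bp beyond the gene (chromosome 10, 52029043 to 52030210), also called in vastus intermedius of adult 3. That region was not limited to the adult: at E18.5 it was called in 3 of 3 soleus, 2 of 3 vastus intermedius, 2 of 3 gastrocnemius and 2 of 3 vastus lateralis lists. In neither region did the 3 soleus peaks share a base.

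Other lists held few, but lists this short cannot show a difference from the 3.11% of all protein-coding genes. Col15a1, a basement membrane collagen, and Tnc, the matrix protein tenascin C that also marks tendon, each had 1 region among 20 extracellular matrix genes. Prrx1, a homeobox factor of limb mesenchyme, was the only one of 24 limb position genes. Lists of Hox genes, calcium handling, clock, glucocorticoid response and atrophy, glycolysis, oxidative metabolism and myogenic progenitors had 0 genes with an adult soleus region. Among markers of other cell types there was 1 gene each for Schwann cells and neurons (Ncam1), endothelium (Erg), fibroblasts (Osr1), immune cells (Mrc1) and tendon (Tnc), and 0 for adipocytes, erythroid cells, smooth muscle and muscle fibres. For the lists with 1, the share of kept regions ran from 0.223% (endothelium) to 0.741% (tendon), against 0.207% in all protein-coding loci.

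Called regions were also counted at the marker loci, which is not a measure of cell numbers. Adult soleus lists called 105 to 158 regions at muscle fibre markers, against 154 to 202 in the other adult muscles, so the ranges met only between 154 and 158. They called 114 to 120 against 98 to 134 at endothelial markers, 64 to 86 against 69 to 99 at fibroblast markers, and 25 to 35 against 16 to 40 at immune markers. For Schwann cells and neurons the ranges were 42 to 50 and 32 to 58, for smooth muscle 37 to 61 and 32 to 56, and for tendon 17 to 25 and 19 to 28. For adipocytes they were 13 to 17 and 14 to 20, and for erythroid cells 7 to 9 and 4 to 10. The part of the cell makeup in the adult soleus regions was not tested.

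An adult soleus region also lay beside a pair of muscle microRNAs. The region (chromosome 1, 20676498 to 20677556) lies inside Lincmd1, the long noncoding RNA gene of this locus, 1454 bp from the hairpin of Mir206 and 5213 bp from that of Mir133b, whose mature sequences are printed above. Both are microRNAs of skeletal muscle, and miR-206 is known for its part at the neuromuscular junction. The region was also called in vastus intermedius of adult 1 and, at E18.5, in soleus of litter 2, gastrocnemius of litters 2 and 3 and vastus lateralis of litter 2. The Myh7 region lies 6094 bp from the hairpin of Mir208b, a microRNA made from within Myh7. Nearness to microRNAs was not common among the regions: 9 of them (0.841%) lay within 10 kb of a hairpin, against 1.11% of all kept regions.

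No gene gathered many adult soleus regions. Of the 681 genes with at least 1, 30 had 2 and 3 had 3, and the regions had 970 different nearest protein-coding genes. Elmo1, an activator of the GTPase Rac, had 3 of 130 kept regions (2.31%), Dscaml1, an adhesion protein of neurons, 3 of 163 (1.84%), and Rbfox1, a splicing factor of muscle and brain, 3 of 193 (1.55%). The next by count each had 2: Gnb5, Stac and Prkd1 of 31 kept regions (6.45%), and Cacng4 of 35. Prkd1 encodes a kinase that phosphorylates class II histone deacetylases. One of its regions was called in no list outside adult soleus, and the other also in vastus intermedius of adult 2. The rest of the 20 leading genes were Arid2, Sv2b, Gab1, Aig1, Sptbn1, Med12l, Arid5b, Acoxl, Cadm1, Runx2, Adcy2, Astn2 and Pknox2, with 2 regions each of 36 to 97. The regions seldom stood in groups: 1034 had no neighbour within 25 kb, and there were 18 runs of 2 and none longer. The longest run (27891 bp) lay at the kallikrein genes near Klk1b8, and another joined both regions of Gnb5.

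Most adult soleus regions lay away from gene starts. Within 1 kb of either end of a gene lay 91 (8.5%), inside genes 559 (52.2%) and between genes 420 (39.3%), against 11%, 50.8% and 38.3% of all kept regions. Regions called in all 24 lists differed from both, with 59.1% near a gene end. Promoter windows, known here for all chromosomes but 18, were overlapped by 23 of 1041 regions (2.21%), against 4.12% of all kept regions and 49.2% of those in all 24 lists. These lay at 8 protein-coding genes and otherwise at lncRNA genes. At Alkbh4 the region (chromosome 5, 136138609 to 136140194) covered part of the window printed above and was called in 3 of 24 lists. At Gsx2 the region was called in all 12 E18.5 lists, and at Nrsn2 in 10 of 12. Of the motifs searched in the 25 windows so touched, CAGCTG was in 3 (12%), against 13% of all windows, GGAATG in 1 (4%), against 12.6%, and the MEF2 consensus in 2 (8%), against 2.92%.

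The soleus peaks behind the regions were somewhat narrower than other soleus peaks, and often lay side by side. Regions were 333 to 2978 bp wide, with a median of 1017.5 bp, against 745 bp for all kept regions. The adult soleus peaks in them had median widths of 356, 412 and 367 bp in adults 1, 2 and 3, against 416, 434 and 402 bp in all kept regions and 872, 720 and 727 bp in regions called in all 24 lists. Of the 1070 regions, 583 (54.5%) had at least 1 base under peaks of all 3 adults. In the others the 3 peaks were joined through neighbouring peaks. The order of lines in the lists is not explained, but wider peaks stand nearer the top. The peaks of these regions had median positions 57.5%, 52.9% and 52.5% down the lists, against 44.7%, 44.7% and 45.1% for all kept regions and 9.68%, 7.82% and 9.2% for regions called in all 24 lists.

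At E18.5 the difference between soleus and the other muscles in calling the adult soleus regions was smaller than the spread between litters. Soleus of litters 1, 2 and 3 called 17.9%, 38.7% and 16.1% of them, against 25%, 30.6% and 19.3% for vastus intermedius, 32.1%, 25.3% and 17.9% for gastrocnemius, and 23.6%, 26.1% and 25.3% for vastus lateralis. The means were 24.2 ± 12.6% in soleus, against 25 ± 5.61%, 25.1 ± 7.06% and 25 ± 1.3% (SD, n = 3 litters). Within litters, soleus minus the mean of the other 3 muscles was -9, 11.4 and -4.8 percentage points, a mean of -0.81 ± 10.8. Litter 2, whose soleus list was the longest, was the only one with soleus above the rest. Over all kept regions the same difference was -1.5 ± 8.68, with the same sign in each litter. Each E18.5 list called a smaller share of the adult soleus regions than of all kept regions: 16.1% to 38.7%, against 22% to 39.7%.

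**Figure D3:**
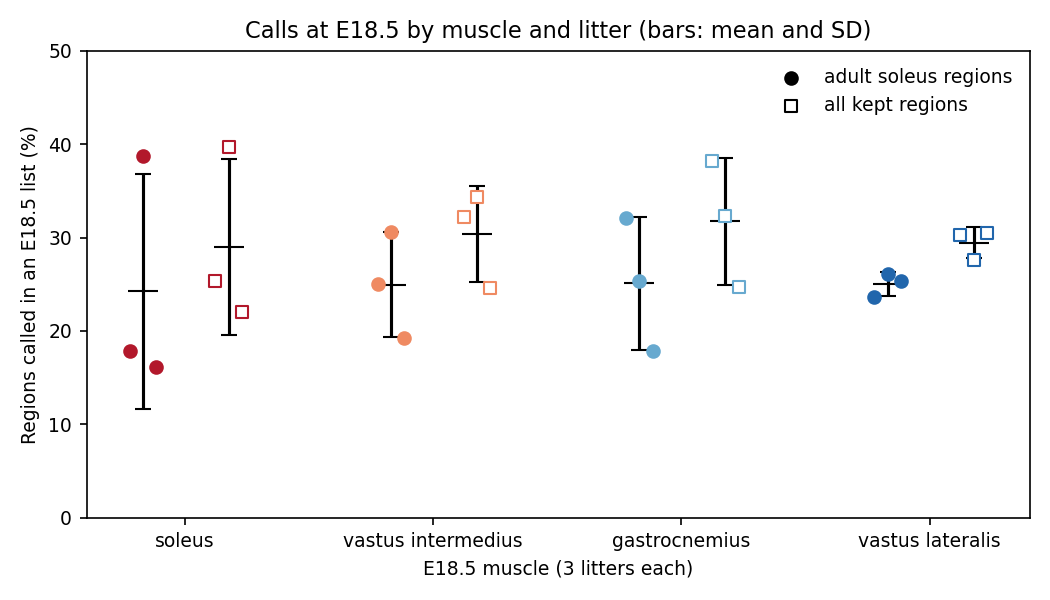
Share of regions called in each E18.5 list (y axis, %) by muscle (x axis), for the 1070 adult soleus regions (filled circles) and all 459616 kept regions (open squares); points are litters, bars the mean and SD. Soleus spans 16.1% to 38.7% of the adult soleus regions and overlaps every other muscle.

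Many of the regions were nevertheless called before birth. In at least 1 of the 12 E18.5 lists 856 (80%) were called, against 85.1% of all kept regions, and 214 (20%) in none, against 14.9%. In 6 or more lists 199 (18.6%) were called, against 24.2%, and in all 12 lists 13. Regions that the same rule chose for other muscles were in none in 19.5% (vastus intermedius), 14.6% (gastrocnemius) and 18.6% of cases (vastus lateralis). A kept region must be called in 2 of 24 lists, which the 3 adult soleus calls already give, so the comparison with all kept regions is a description.

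No region separated E18.5 soleus from the other E18.5 muscles past the threshold. Fisher's exact test (two-sided, 3 soleus against 9 other lists, Benjamini-Hochberg adjustment) was run over the 219825 regions with enough calls, and 0 had an adjusted p under 0.05, which was 0% of all and 0 of 569 adult soleus regions. The smallest p that this design can give is 0.00455, with an adjusted p of 1. At an unadjusted p under 0.05, soleus was higher in 10 of the 569 (1.76%), against 3387 of all (1.54%), and lower in 5 (0.879%), against 1333 (0.606%). For slow-biased against fast-biased muscles (6 against 6), 0 of 49905 regions passed, and at an unadjusted p under 0.05 the slow-biased muscles were higher in 0 of 183 adult soleus regions (0.234% of all) and lower in 1 (0.591% of all). The test took no account of the 3 litters, each of which gave all 4 muscles; stratified by litter, 0 regions passed as well.

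Of the adult soleus regions, 5 (0.467%) also met the rule at E18.5, with calls in 3 of 3 soleus and at most 1 of 9 other lists, against 337 of all kept regions (0.0733%). Nearly as many, 4, met the E18.5 rule of gastrocnemius, 1 that of vastus intermedius and 0 that of vastus lateralis, against 995, 600 and 572 of all kept regions. Adult gastrocnemius regions met the E18.5 rule of vastus intermedius in 7 cases and that of their own muscle in 5. The most separated of the 5 soleus regions lies inside Epb41l4a, a gene of the band 4.1 family of membrane skeleton proteins (chromosome 18, 33843761 to 33844832). It was called in 3 of 3 soleus lists and in 0 of 9 others at both stages (E18.5 Fisher's exact test p = 0.00455, adjusted p = 1). The others lie inside Spag16 (chromosome 1, 69853450 to 69854326) and Apbb1ip (chromosome 2, 22837882 to 22838494), 97942 bp from Zmat4 and 177812 bp from Lrig1, and each was called in 1 other E18.5 list. Among regions with no other adult call, Ptpro, Crim1, Scgb2b15 and LOC108167340 followed, each with 2 of 3 E18.5 soleus lists and 0 of 9 others. Lyplal1, Atxn7l1, Ipo11 and Cacna1b, the nearest genes of the next, had 2 soleus and 1 or 2 other calls.

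The more of the other adult lists called a region, the larger was its share called at E18.5, in soleus and in the rest. Among regions called in 3 adult soleus lists and 0 others, E18.5 soleus lists called 18.9% and other E18.5 lists 19.3%. With 1 other adult list the shares were 27% and 28.1%, and with 2, just outside the rule, 37.2% and 38%. With all 9 they were 92.9% and 93.7%. The regions also grew wider, with a median of 889.5 bp at 0 other lists, 1082 bp at 1, 1243 bp at 2 and 1964 bp at 9. An overlap of 1 bp makes a call, and the part of width in the trend was not tested.

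**Figure D4:**
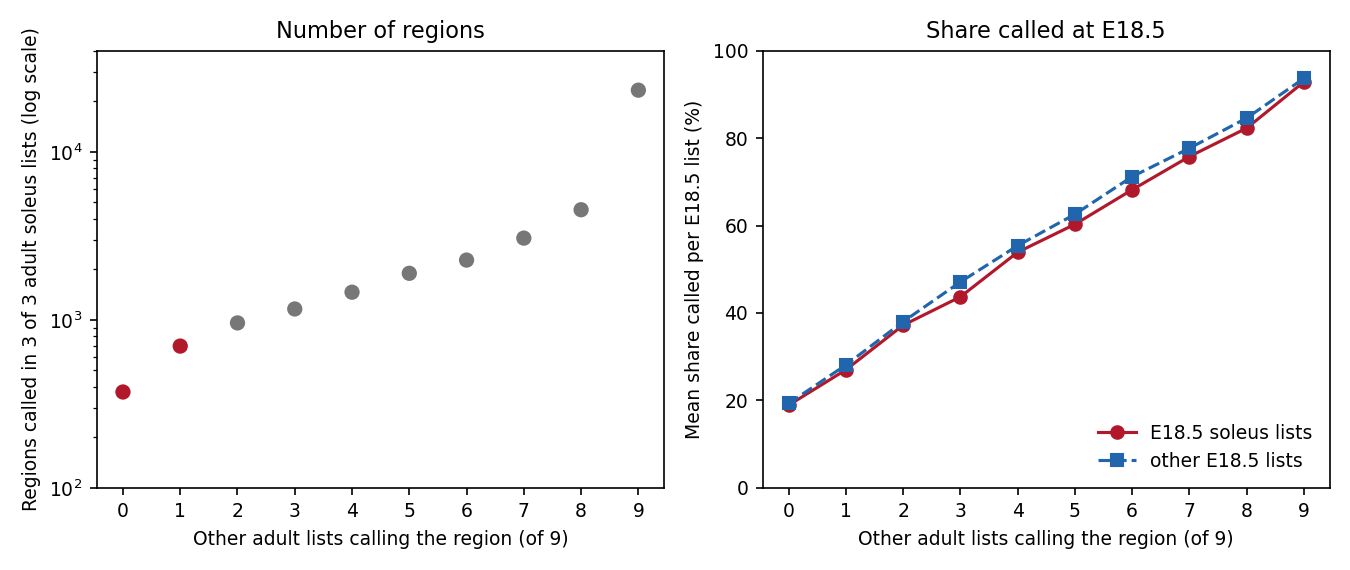
Left, number of regions called in 3 of 3 adult soleus lists (log scale) by the number of other adult lists calling them, with the adult soleus regions in red; right, mean share called per E18.5 list in soleus (circles) and other muscles (squares). Both lines climb together, from 18.9% and 19.3% at 0 lists to 92.9% and 93.7% at 9.

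Whether the pattern recurs in adult animals was read, in a comparison added after the data were seen, by choosing regions in 2 animals (2 of 2 soleus and at most 1 of 6 other lists) and reading the third. Of the 8571 regions chosen without adult 3, its soleus called 21.5%, against 14.9% for vastus intermedius, 17.4% for gastrocnemius and 17.1% for vastus lateralis. Of 7108 chosen without adult 2, soleus called 30.7%, against 19.9%, 26.9% and 23.6%. Of 11242 chosen without adult 1, soleus called 17%, against 11.3%, 18.2% and 23.2%. Soleus was thus highest in 2 of 3 animals, and its difference from the mean of the other muscles was 3.91 ± 4.01 percentage points (SD, n = 3), against 0.663 ± 2.89 over all kept regions. In adults 1, 2 and 3 the soleus difference was -0.522, 7.28 and 4.98 points, against -2.37, 3.38 and 0.975 over all kept regions. The sign was thus the same in each animal. Over all kept regions soleus was also highest in adult 2, with 33%, against 25.5%, 32.1% and 31.4%. The like mean difference was 8.61 ± 1.96 for vastus lateralis regions, 3.76 ± 0.814 for gastrocnemius and -3.08 ± 2.54 for vastus intermedius.

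**Figure D5:**
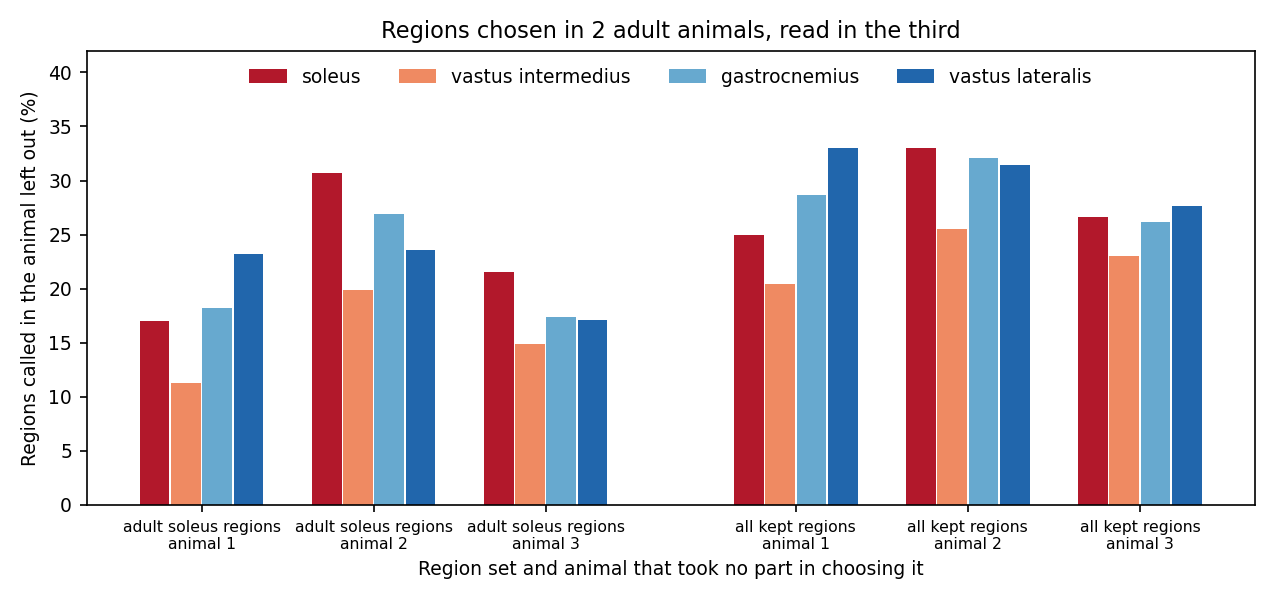
Share of regions (y axis, %) called in the 4 muscles of the adult that took no part in choosing them (x axis), for adult soleus regions chosen in the other 2 animals (left) and all kept regions (right). For the adult soleus regions, soleus is highest in adults 2 (30.7%) and 3 (21.5%) and not in adult 1, where it called 17%. Over all kept regions it is also highest in adult 2 (33%).

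At slow fibre loci the soleus of the third animal called 6 of 7 regions without adult 1, 9 of 17 without adult 2 and 7 of 15 without adult 3. Vastus intermedius of the same animals called 1, 6 and 4 of them, gastrocnemius 3, 5 and 3, and vastus lateralis 0, 2 and 1. Over the 3 choices together, 39 in all with some regions in more than 1, these are 56.4% for soleus, against 28.2%, 28.2% and 7.69% for the other muscles in that order. Over all protein-coding loci the shares were 22.2% for soleus, against 15.8%, 21.1% and 22.1%. Other lists with few regions stood about as high in soleus: 56.2% of 16 at neuromuscular junction genes, 50% of 6 at fast fibre genes and 50% of 8 at tendon genes. Every adult soleus region is among those chosen each time, and the rule fixed its soleus calls. The 3 such regions at neuromuscular junction genes and the 1 at fast fibre genes gave all soleus calls of their lists. At tendon genes the 1 at Tnc gave 1 soleus call in each animal. The same limit holds for the 5 slow fibre regions named above. In the 24 slow fibre choices that were not of these 5 regions, soleus called 7, against 10 for vastus intermedius, 9 for gastrocnemius and 3 for vastus lateralis. The rule shaped this remainder too, because a region called in the third soleus and hardly elsewhere would be an adult soleus region. The slow fibre regions lay at 13 genes, among them Csrp3, a muscle LIM protein, Myl2, the slow myosin light chain, and Tnnt1, slow troponin T.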

How the data were processed

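The 24 peak lists deposited by the authors, 1 per library, hold peak positions on mm10 (a chromosome with 2 coordinates) and no score, so only positions and calls were taken from them. The submitters' processing notes name MACS2 2.1.1, Bowtie2 2.4.4, bedtools 2.25.0, Picard, Trimmomatic 0.39.0, FastQC 0.11.5 and SAMtools 1.14.0. Peak thresholds and any shift for the transposase are not given in the sources used.

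Peaks on chromosomes 1 to 19, X and Y were merged where they overlapped or touched, which gave 930761 regions, of which 471145 were called in 1 list only. An overlap of 1 bp made a call. Genes (21887 protein-coding, 12727 lncRNA), 32851 promoter windows and 1005 microRNA hairpins came from RefSeq on GRCm38.p6; the gene table has no strand or exons. Sequences and motifs of the regions were not analysed here. The code was Python 3.11.15 with numpy 2.4.6, pandas 2.3.3, scipy 1.17.1 and matplotlib 3.10.9, tested on simulated data.

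At E18.5, Fisher's exact test per region was adjusted over all regions whose number of calls could pass 0.05. The muscles of a number come from the same animal or litter, per the labels, and pairs of lists that share one had a mean correlation of deviations from their group of 0.0127 in the adult and 0.0541 at E18.5, against -0.00632 and -0.0271 for other pairs.

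The regions, gene lists and rule for named genes were chosen with earlier results of these data known. Named were the 20 loci with most regions, listed genes (fibre lists with 1 region, others with 2 or at a gene end), the 10 regions with no other adult call and the largest E18.5 difference, and the 10 longest runs; the remaining names were chosen after their values were seen. Alternatives covered overlap, list length, peak width, thresholds, distances, the block by litter and leaving out each animal or litter.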

Additional observations from a re-analysis of the deposited data

How the results depend on the processing

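The number of adult soleus regions, 1070, moved with the rule: 372 with 0 of 9 other adult lists, 2029 with at most 2, 583 when the 3 soleus peaks share a base, 243 when a call must cover 50% of the region, 512 with lists thinned at random to the shortest, 540 with the first lines of each list (chosen after seeing the data), and 7108 to 11242 without 1 adult. Genes with a region in their loci, 681, became 264, 1242, 349, 158, 352 and 338 in the same order, 1511 with 50 kb on each side and 3709 to 5107 without 1 adult. Slow fibre genes, 5, became 2 with 0 of 9 lists (Myh7 and Tnnc1), 2 with thinned lists (Myh2 and Myoz2), 3 with the first lines (without Myh7 and Myoz2) and 7 to 12 without 1 adult. With 50% cover they were again 5, but Atp2a2, Myoz2 and Myh2 were replaced by Myh7b, Myl2 and Tnnt1. The share in no E18.5 list, 20%, was 26.6% with 0 of 9, 13.9% with at most 2, 25.6% with a shared base, 42.8% with 50% cover, 24.3% with the first lines and 25.1% to 28.5% without 1 adult. The share within 1 kb of a gene end, 8.5%, was 11.5% with 50% cover, 15.3% within 2.5 kb and 7.74% to 9.03% without 1 adult. The E18.5 difference of -0.81 points was -6.9 to 3.29 without 1 litter, -1.35 to -1.03 without 1 adult and 4.07 with 50% cover. Peaks cut to 500 bp gave values within these limits (1169 regions).

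Stratified by litter (the replicate block), 0 regions passed in either E18.5 test, and the smallest p was 0.0156 for soleus and 0.00926 for slow-biased muscles. Under every other alternative run 0 passed, including without 1 litter. There the smallest p of Fisher's exact test was 0.0357 for soleus and 0.0286 for slow-biased muscles. With so few lists a region can hardly pass the adjustment, so these counts of 0 do not bear on whether muscles differ. At unadjusted p under 0.05 the soleus count was 4720 without the block and 940 with it. Read depth was not used here, and list length stood in for it.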
